A study of Mus musculus with 15 samples.

Results

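Nucleosome positions were examined at the promoters of 9 genes of MHC class I antigen presentation, H2-K1, H2-D1, B2m, Psmb8, Psmb9, Tap1, Tap2, Tapbp and Erap1, among the 25881 promoters for which ChIP-MNase occupancies were deposited. The members were taken by gene symbol: each RefSeq identifier of the deposited promoter annotation was matched to its symbol, every row of the 9 genes was kept, and this gave 9 rows with 1 row per gene. Promoters were called high-coverage when their coverage score, which the authors counted from fragments near the transcription start site (TSS), was above 100. This held for 13559 of all promoters and for 8 of the 9 members. Erap1, with a coverage score of 53.2, was the exception, and its values are given without a test.

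Class I molecules display peptides from inside the cell to CD8+ T cells. A heavy chain, encoded in the mouse by H2-K1 and H2-D1, pairs with the light chain β2-microglobulin, the product of B2m. Peptides are cut by the proteasome, in which the inducible subunits encoded by Psmb8 and Psmb9 can replace constitutive ones, and they are carried into the endoplasmic reticulum by a transporter made of the Tap1 and Tap2 proteins. Tapasin, encoded by Tapbp, holds the transporter and the empty class I molecule together, and the aminopeptidase encoded by Erap1 trims peptides to their final length. The pathway is active at a low level in many cell-types, is prominent in dendritic cells, and is raised by interferons and by NF-kB-activating stimuli.

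In ChIP-MNase, an antibody first pulls down long pieces of chromatin, and micrococcal nuclease (MNase) then trims them on the beads, so that the DNA left marks the nucleosomes of the recovered alleles. Of 15 libraries, 4 are sets in which the authors pooled 2 replicates: H3K4me1 in non-stimulated dendritic cells (DCs), in DCs after 1 h of LPS at 100 ng/ml, in non-stimulated 3T3 fibroblasts, and in 3T3 fibroblasts given TNF-α (5 ng/ml) for 1 h. Another 8 are single H3K4me1 libraries of 3T3 fibroblasts, with 2 replicates each of control cells and of cells with Brg1/Brm knock-down (BAF knockdown), without stimulus and with the same TNF-α treatment. The last 3 are from TNF-α-stimulated 3T3 fibroblasts without knock-down and were made with antibodies against RNA polymerase II phosphorylated at serine 7 (pol-II S7P, 2 replicates) or serine 5 (pol-II S5P, 1 library). The DCs were differentiated in culture from a mouse bone marrow progenitor line with GM-CSF, 3T3 is an immortalised mouse fibroblast line, and the knock-down rests on 1 retroviral short hairpin RNA against both Brg1 and Brm, the catalytic subunits of the BAF remodelling complex, in cells sorted for GFP. The labels do not say what the control cells carried. The study describes its replicates as independent samples, and p-values below set differences against the residual spread of the fits. In fits without an interaction term, this spread also holds any difference in TNF-α effect between control and BAF-knockdown cells. Occupancies hold no mRNA level, and the knock-down itself could not be checked in them.

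Occupancies are relative to the surrounding 1 kb and averaged over 50 bp, in 200 bins of 10 bp around each TSS. They hold no read counts, so the share of bins with any signal at high-coverage promoters stood in for depth: 82.0 to 90.2% for pooled sets, 63.5 to 78.1% for single H3K4me1 libraries and 69.2 to 81.2% for pol-II. The NDR log2 ratio used below is the log2 of mean occupancy from -150 to 0 bp over that from -1000 to -500 bp, with 0.1 added to both: a negative value marks a nucleosome-depleted region (NDR) before the start. Values near -4 in the pooled sets come from windows with next to no signal, where the 0.1 sets the value. In single H3K4me1 and pol-II libraries, whose mean occupancy is lower, such windows give less negative values. Examples are -3.16 at B2m in control non-stimulated replicate 1 and -3.71 at H2-D1 in pol-II S7P replicate 1. The median NDR log2 ratio over high-coverage promoters was -0.70 to -0.58 in the pooled sets. In the single H3K4me1 libraries it was -0.39 to -0.36 in 4 libraries (control replicate 1 of both states and both non-stimulated BAF-knockdown libraries) and -0.59 to -0.55 in the other 4. In single libraries the SD between replicates of 1 promoter had a median of 1.05 over high-coverage promoters, so a value from 1 library is imprecise. Every value averages over many alleles, and a nucleosome that is present on fewer alleles cannot be told apart from one that is less well positioned. As a check of the labels in the libraries themselves, 10 of 12 DC markers and 4 of 12 fibroblast markers had a lower NDR log2 ratio in non-stimulated DCs than in non-stimulated fibroblasts. Over high-coverage promoters this share was 47.8%. Medians in DCs and fibroblasts were -1.59 and 0.01 for DC markers, but -0.27 and -0.34 for fibroblast markers, which thus differed little. Csf2ra, Col1a2, Col3a1, Col5a1, Twist1, Twist2 and Lum, with coverage scores below 100, were included. Expression before stimulation is given in the annotation in FPKM from public RNA-seq, which is not from these libraries.

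Of the 9 genes, 7 lie in the MHC region of chromosome 17, B2m is on chromosome 2 and Erap1 on chromosome 13 (mm9). The promoters of the heavy chains, of B2m and of the Psmb9 and Tap1 pair are shown because the positions of their NDRs are what the values below describe. Each was read from the mm9 genome in the direction of transcription, from 200 bases before the annotated start up to its last base before the start, or, for Psmb9 and Tap1, over all 226 bases between both starts. Capitals mark matches on either strand to an interferon regulatory factor (IRF) element (GAAANNGAAA), the NF-kB consensus, the CCAAT box (CCAAT), the GC box (GGGCGG) and the TATA box (TATAAA).
H2-K1 (chr17:34137279-34137478, minus strand): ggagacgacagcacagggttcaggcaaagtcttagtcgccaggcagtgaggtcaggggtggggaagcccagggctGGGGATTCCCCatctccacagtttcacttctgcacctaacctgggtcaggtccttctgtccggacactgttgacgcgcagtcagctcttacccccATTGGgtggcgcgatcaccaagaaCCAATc
H2-D1 (chr17:35399840-35400039, plus strand): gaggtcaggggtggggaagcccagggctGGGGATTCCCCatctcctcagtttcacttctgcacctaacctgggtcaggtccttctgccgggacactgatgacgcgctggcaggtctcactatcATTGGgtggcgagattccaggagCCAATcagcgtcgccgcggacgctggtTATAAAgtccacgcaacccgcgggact
B2m (chr2:121973224-121973423, plus strand): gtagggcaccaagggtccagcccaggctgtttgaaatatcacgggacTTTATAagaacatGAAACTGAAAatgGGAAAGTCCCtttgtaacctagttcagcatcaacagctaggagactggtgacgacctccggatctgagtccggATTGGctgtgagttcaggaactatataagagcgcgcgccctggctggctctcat
Psmb9 to Tap1 (chr17:34324276-34324501, plus strand, in the direction of Tap1): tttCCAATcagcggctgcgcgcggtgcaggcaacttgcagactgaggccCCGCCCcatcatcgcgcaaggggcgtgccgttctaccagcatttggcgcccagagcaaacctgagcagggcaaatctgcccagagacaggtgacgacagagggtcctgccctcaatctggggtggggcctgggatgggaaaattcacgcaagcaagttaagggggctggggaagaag

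From 250 bp before to 50 bp after the start, the NF-kB consensus was matched in 3 of the 9 members (H2-D1, H2-K1 and B2m) and in 4.68% of the 25738 promoters with mm9 sequence. The IRF element was matched in 3 members (B2m, Tap2 and Erap1) and in 3.46% of promoters, the CCAAT box in 6 and 37.8%, the GC box in 4 and 45.3%, and the TATA box in 4 and 12.7%. Tap1 and Psmb9 share the same bases as their CCAAT box and as their GC box, and these were counted for both. Of the TATA matches, that of Psmb8 began at -238 bp, that of B2m at -153 bp on the opposite strand, and those of the heavy chain genes are placed below. In both heavy chain genes the NF-kB matches were 2 that overlap, shifted by 1 base. With H2-K1 moved by 47 bp, 70% of the 200 bases before the H2-D1 start were identical between the heavy chain genes, so that the annotated start of H2-K1 lies further upstream in the common sequence: its TATA box is at 21 to 26 bp after the start and that of H2-D1 at 27 to 22 bp before it. B2m carried its IRF element from -140 to -131 bp and its NF-kB match from -127 to -118 bp, with no overlap. Such matches describe the sequence and do not show binding. Within 200 bp of the start, 5 members met the criteria of a CpG island (H2-D1, H2-K1, B2m, Tap2 and Psmb9), against 56.1% of high-coverage promoters. Because the heavy chains have close relatives, the share of 32-base words within 1 kb of the start that occur once in mm9 was counted: it was 67.2% for H2-K1, 78.1% for H2-D1, 91.8% for B2m, 91.2% for Erap1, 97.7% for Tap2 and 100.0% for Tap1, Tapbp, Psmb8 and Psmb9. Fragments of H2-K1 and H2-D1 can therefore be assigned less certainly than those of the other members.

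The heavy chain genes were among the most highly expressed of all genes in DCs before stimulation, at 46.3 FPKM (H2-K1) and 51.4 FPKM (H2-D1), and were also expressed in fibroblasts, at 34.4 and 37.2 FPKM. The scales of the cell-types differ, and levels were not compared between them. At H2-D1, the NDR log2 ratio was -0.89 in non-stimulated DCs, -4.28 after LPS, -0.08 in non-stimulated fibroblasts and -2.49 after TNF-α in the pooled sets. At H2-K1, the corresponding NDR log2 ratios were -1.12, -4.05, -0.06 and -1.31. Both promoters thus had lower occupancy before the start in the stimulated than in the non-stimulated set of each cell-type, and both windows held almost no signal in LPS-stimulated DCs.

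The single fibroblast libraries did not show the same order. H2-D1 had NDR log2 ratios of -2.32 and -2.95 in non-stimulated and 0.40 and -0.52 in TNF-α-stimulated control cells, and of -0.76 and -0.73 in non-stimulated and -0.87 and -3.34 in stimulated BAF-knockdown cells. H2-K1 had -0.34 and -0.22 in non-stimulated control, 0.21 and -2.54 in stimulated control, -1.64 and -1.43 in non-stimulated BAF-knockdown and -1.93 and -0.58 in stimulated BAF-knockdown cells. Stimulated and non-stimulated libraries overlapped at both genes. Over the matched motifs the heavy chain promoters differed. At the TATA box of H2-D1 occupancy was below the library mean in 12 of 12 H3K4me1 libraries (0 to 0.511 times the mean), and at its NF-kB match in 9 of 12 (median 0.299). At the NF-kB match of H2-K1 it was below the mean in 10 of 12 (median 0.00128), and at its TATA box in 8 of 12, with values up to 3.14 times the mean. How often other promoters are below the mean at such positions was not counted. When the H2-K1 start was moved to the position aligned with that of H2-D1, its NDR log2 ratio was -1.09, -4.13, 0.28 and -1.64 in the 4 pooled sets, in the same order of sets. Single libraries changed more. From the moved start, control cells had -1.74 and 0.20 without and -0.45 and -0.18 with TNF-α. BAF-knockdown cells had -1.45 and -0.70 without and -0.35 and -0.51 with TNF-α. No effect was fitted from the moved start. The profiles of H2-D1 and H2-K1 correlated with r between -0.17 and 0.45 across the 200 bins of a library, and with r between -0.33 and 0.53 after a shift of 50 bp, over the 15 libraries. The points are bins of the same library averaged over neighbours, and the shift did not raise r throughout.

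**Figure D1:**
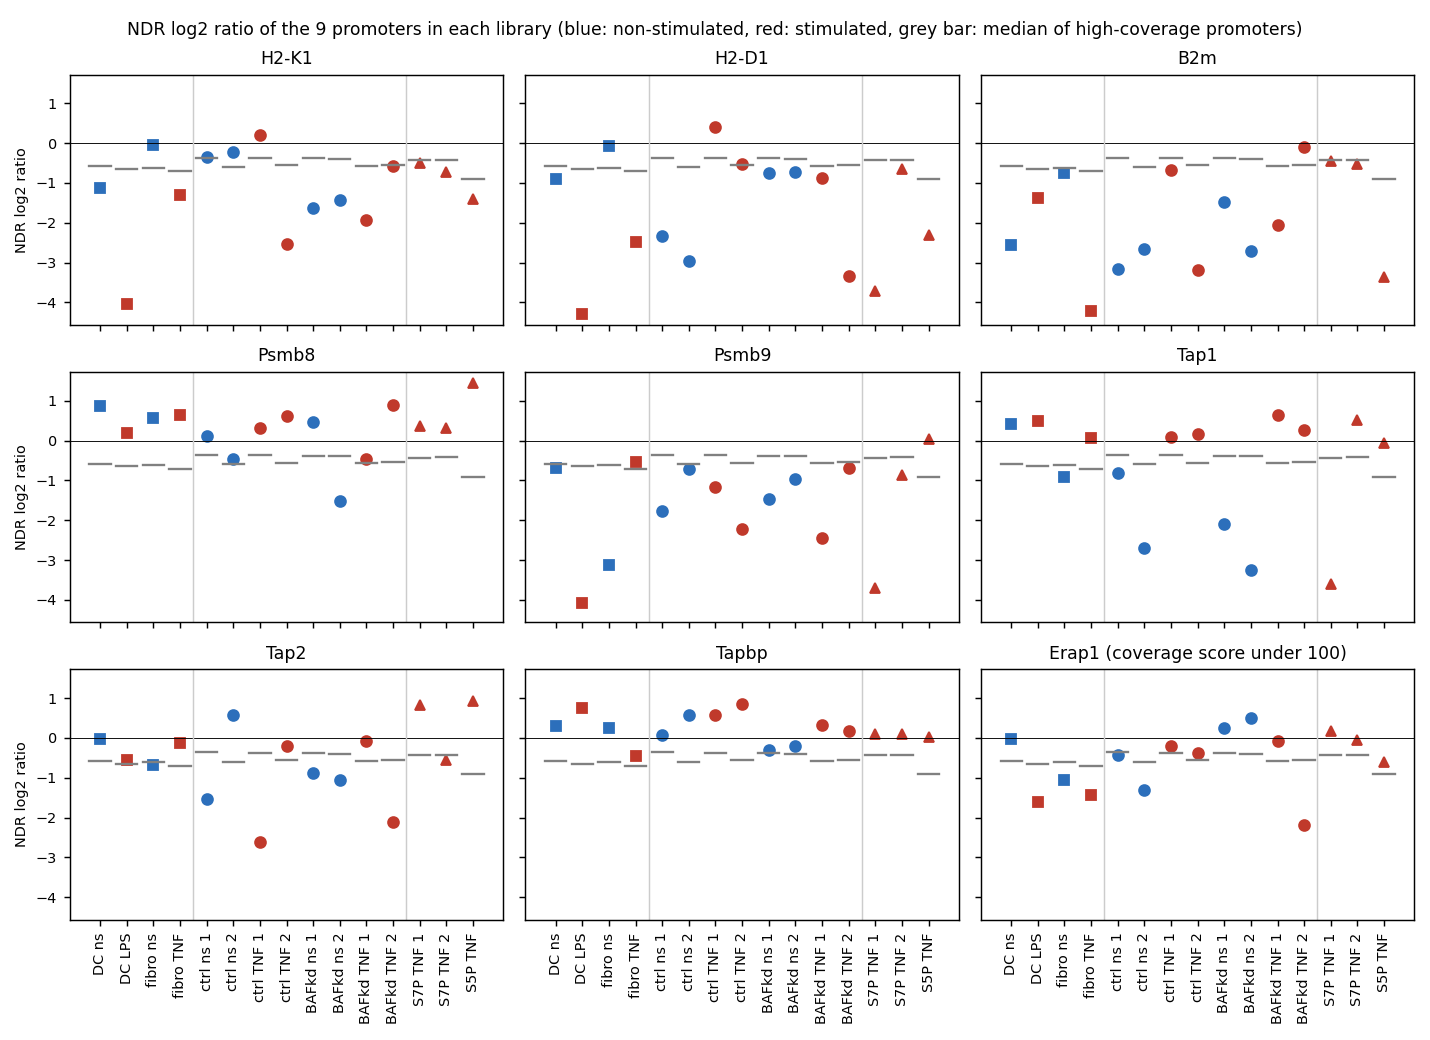
NDR log2 ratio (vertical axis) of each of the 9 promoters in the 15 libraries (horizontal axis, ns for non-stimulated), with squares for pooled sets, circles for single H3K4me1 libraries, triangles for pol-II libraries and a grey bar for the median of high-coverage promoters in that library. B2m and Psmb9 lie below 0 in all 12 H3K4me1 libraries, Tapbp stays between -0.45 and 0.86, and the 4 TNF-α-stimulated circles of Tap1 lie above its 4 non-stimulated ones.

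B2m, which encodes the light chain shared by all class I molecules, was the most highly expressed member in either cell-type (169 FPKM in DCs, 658 FPKM in fibroblasts) and its NDR log2 ratio was negative throughout. Its NDR log2 ratio was -2.55 in non-stimulated DCs, -1.37 after LPS, -0.75 in non-stimulated fibroblasts and -4.22 after TNF-α. In the 8 single H3K4me1 libraries it ranged from -3.18 to -0.09 with a median of -2.36. All 15 values were thus below 0, although replicates differed by an SD of 1.22, and 14 of 15 were below the median of high-coverage promoters in the same library, the exception being BAF-knockdown TNF-α replicate 2. The CCAAT box of B2m had occupancy below the library mean in 11 of 12 H3K4me1 libraries, its IRF element in 11 of 12 and its NF-kB match in 10 of 12. At the CCAAT box both pol-II S7P replicates were above the mean (1.02 and 1.17 times). How often other promoters are below the mean at such positions was not counted here either. Of the 100 bp windows centred within 300 bp of the start on either side, that of highest occupancy lay downstream in each pooled set. It was 110 to 210 bp after the start in both DC sets, with 1.96 and 4.10 times the library mean. In TNF-α-stimulated fibroblasts it was 40 to 140 bp after the start. In non-stimulated fibroblasts it was 250 to 350 bp after the start, at the edge of the search. The coverage score of B2m, 112, was only just above the limit of 100, so its profile rests on fewer fragments than those of the other members of high coverage.

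**Figure D2:**
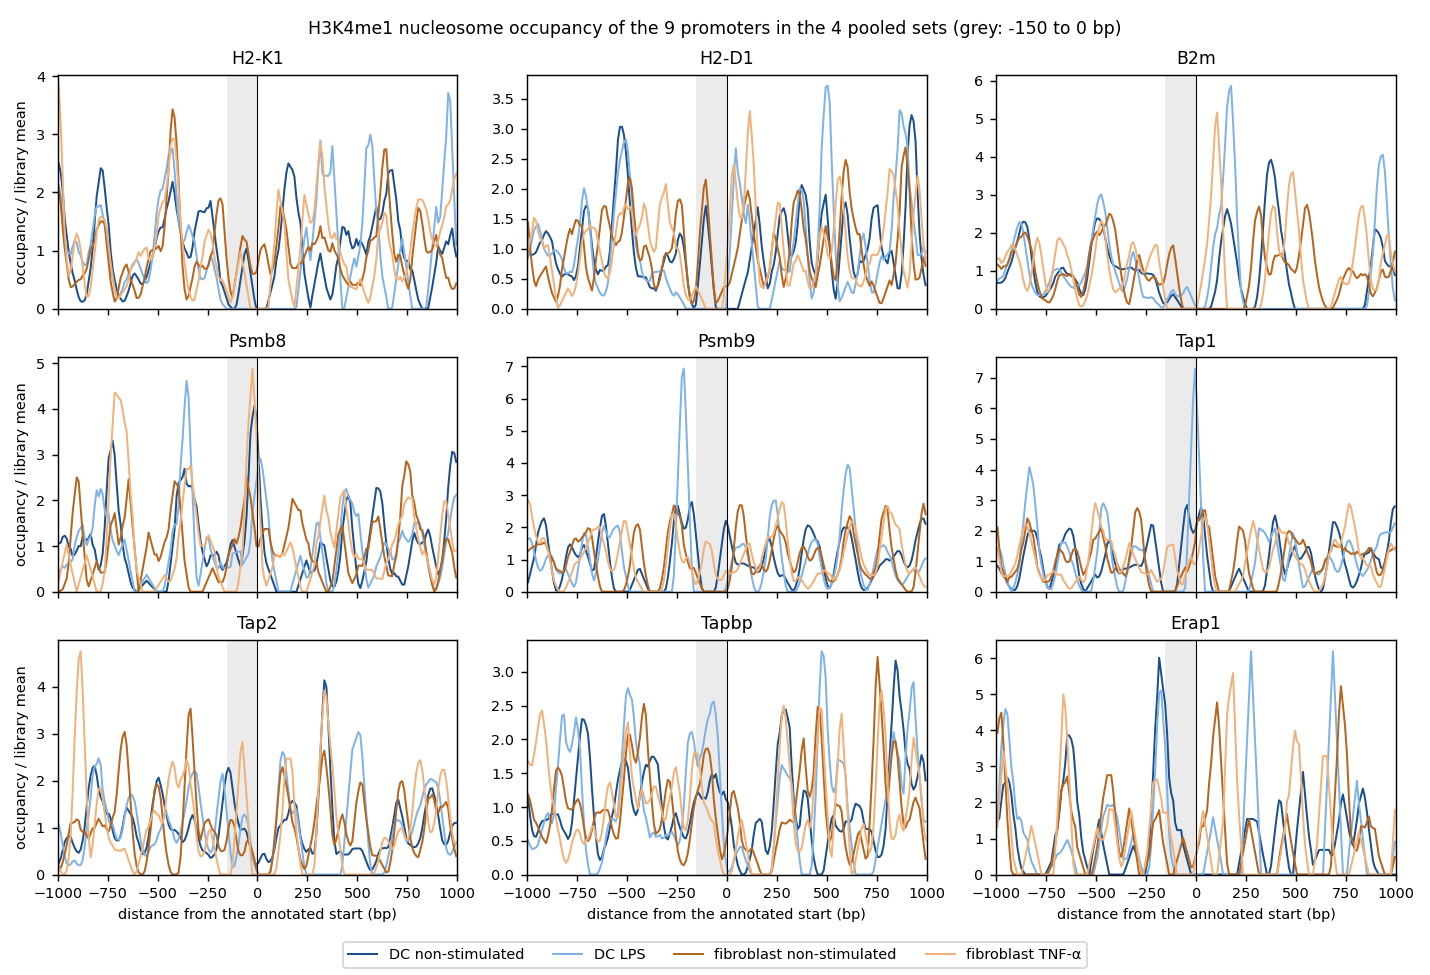
Nucleosome occupancy divided by the library mean (vertical axis) against distance from the annotated start in bp (horizontal axis) at the 9 promoters in the 4 pooled H3K4me1 sets, with the window from -150 to 0 bp in grey. The window of B2m lies below its downstream nucleosome in each set. Psmb8 is occupied there in each set and Tapbp in all but TNF-α-stimulated fibroblasts, and at Tap1 the start is occupied in each set, more so in the DC sets.

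Psmb8 encodes an inducible catalytic subunit of the proteasome and was expressed in DCs (11.5 FPKM) but fell below the limit for active genes in fibroblasts (0.259 FPKM, against a limit set at 0.02 times the mean of all promoters). Its promoter was occupied in front of the annotated start: the NDR log2 ratio was 0.87 and 0.20 in non-stimulated and LPS-stimulated DCs and 0.57 and 0.64 in fibroblasts without and with TNF-α. In the 8 single H3K4me1 libraries it ranged from -1.51 to 0.88 with a median of 0.22. It exceeded the median of high-coverage promoters in 14 of 15 libraries, the exception being BAF-knockdown non-stimulated replicate 2. This value depends on which start is meant. GENCODE places the nearest protein-coding start of Psmb8 at 406 bp upstream of the RefSeq start, and from there the NDR log2 ratio was -1.75 and -0.56 in the DC sets, 0.77 in non-stimulated and -1.39 in TNF-α-stimulated fibroblasts. Most of the flank moved with that start fell outside the bins, so values from there rest on a short remaining stretch of it. From that start the 8 single H3K4me1 libraries ranged from -2.07 to 3.75 and the 3 pol-II libraries had 0.29, 0.48 and 3.33. The pooled sets thus changed sign in 3 of 4 cases with the start and flank used. The single libraries lay on both sides of 0 from either start.

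Psmb9, which encodes another inducible catalytic subunit, and Tap1, which encodes a chain of the peptide transporter, are transcribed away from each other. The 226 bases between their RefSeq starts were taken as the promoter of both. GENCODE places a start of Psmb9 8 bp before the RefSeq start and the nearest protein-coding one 111 bp after it. Values of Psmb9 from those starts were not computed. The bins follow the strand of each gene: the Tap1 profile and the reversed Psmb9 profile, brought to the same genome position, correlated with r between 0.998 and 1.00 in the 15 libraries, so that both rows hold the same measurement seen from either side and are not independent. The genes had almost the same expression before stimulation, 3.23 and 3.36 FPKM (Tap1 and Psmb9) in DCs and 2.78 and 2.80 FPKM in fibroblasts. The sides of the promoter differed in occupancy. Seen from Psmb9, the NDR log2 ratio was -0.70 and -4.07 in non-stimulated and LPS-stimulated DCs and -3.11 and -0.53 in fibroblasts without and with TNF-α. Seen from Tap1, it was 0.42 and 0.50 in the DC sets and -0.92 and 0.07 in the fibroblast sets.

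The Tap1 start was occupied in each pooled set, more so in the DC sets, and in non-stimulated DCs the Psmb9 start was occupied as well. From -50 to 50 bp of the Tap1 start occupancy was 2.32 times the library mean in non-stimulated and 3.70 times in LPS-stimulated DCs, against 1.80 and 1.39 times in fibroblasts without and with TNF-α. Between -170 and -90 bp of the Tap1 start, on the Psmb9 side, it was 0.0337 and 0 times the mean in the DC sets and 0.0260 in non-stimulated fibroblasts, but 1.19 in TNF-α-stimulated fibroblasts. In the single fibroblast libraries occupancy there was 0.0313 to 0.494 times the mean with TNF-α and 0 to 0.268 without, so these overlapped. From -250 to -200 bp, over the Psmb9 start, it was 1.90 times the mean in non-stimulated DCs, 0.314 after LPS, and 0.148 and 0.576 in the fibroblast sets. These windows were chosen after the profiles were seen. At the GC box from -177 to -172 bp of Tap1, occupancy was below the library mean in 12 of 12 H3K4me1 libraries (0 to 0.939 times the mean) in the bins of the Tap1 row and in 11 of 12 in those of the Psmb9 row. The share of other promoters below the mean at such positions was not counted.

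**Figure D3:**
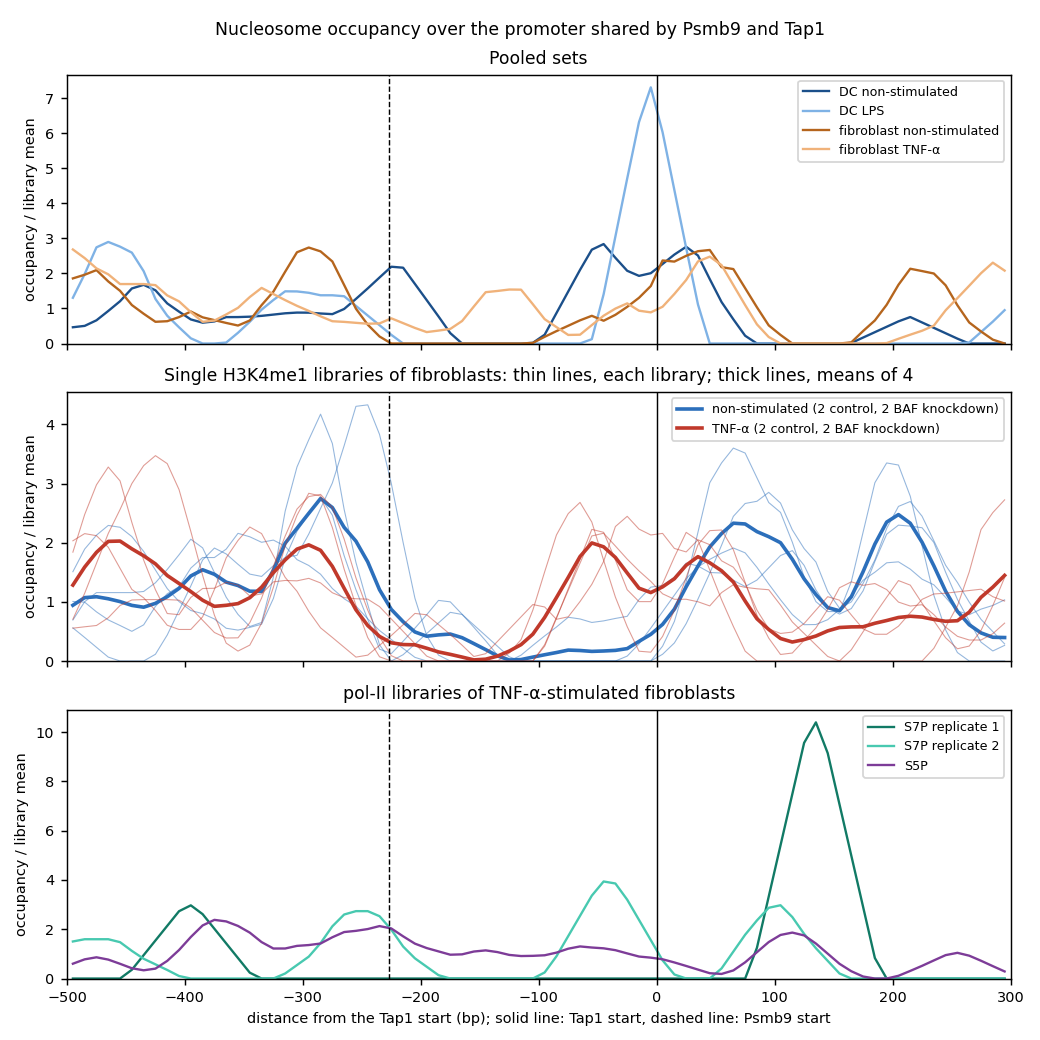
Nucleosome occupancy divided by the library mean (vertical axis) against distance from the Tap1 start in bp (horizontal axis) over the promoter shared by Psmb9 (dashed line) and Tap1 (solid line), in the pooled sets, the single H3K4me1 fibroblast libraries and the pol-II libraries. In the middle panel the mean of the 4 non-stimulated libraries is 0.167 from -150 to 0 bp and peaks at 65 bp, and that of the 4 TNF-α-stimulated libraries peaks at -55 bp and 35 bp.

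Tap1 had the largest difference between TNF-α-stimulated and non-stimulated single libraries among the members. Its NDR log2 ratio was -0.82 and -2.69 in non-stimulated and 0.09 and 0.16 in TNF-α-stimulated control cells. In BAF-knockdown cells it was -2.09 and -3.26 without stimulus and 0.65 and 0.27 with TNF-α. The window behind -3.26 held no signal, so the added 0.1 sets that value. The windows behind -2.69 and -2.09 held occupancies of 0.0235 and 0.0893, less than the added 0.1, which therefore weighs heavily in those values too. All 4 stimulated libraries lay above all 4 non-stimulated ones, in control and in BAF-knockdown cells alike, and the pooled fibroblast sets had the same order at -0.92 and 0.07. Averaged over the 4 non-stimulated libraries, occupancy from -150 to 0 bp of Tap1 was 0.167 times the library mean and the nearest nucleosome downstream peaked at 65 bp, with 2.33 times the mean. Averaged over the 4 stimulated libraries, occupancy of the window was 1.04 times the mean, with peaks at -55 bp (2.00 times) and 35 bp (1.76 times). Between 60 and 140 bp after the start, values of 1.21 to 2.48 times the mean in the non-stimulated libraries compared with 0.0940 to 0.913 in the stimulated ones. This window was set after its peak was seen, and the pooled fibroblast sets had 0.687 without and 0.437 with TNF-α, both inside the stimulated range.

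Whether such differences exceeded the residual spread was tested with limma on all 13559 high-coverage promoters and the 8 single H3K4me1 libraries, with TNF-α and knock-down as terms and Benjamini-Hochberg adjustment. At an adjusted p below 0.05, 0 of the 8 members and 0 of all promoters (0%) changed in NDR log2 ratio with TNF-α, and 780 promoters (5.75%) and 1 member, Tap1, had an unadjusted p below 0.05. The effect at Tap1 was an increase of 2.51 ± 0.55 (SE) in NDR log2 ratio, between a mean of -2.21 ± 1.04 (SD, n = 4) and one of 0.29 ± 0.25 (SD, n = 4), with a limma p of 0.003165 and an adjusted p of 0.548, which did not pass. Of the 8 members only Tap1 had stimulated libraries that were all higher than the non-stimulated ones, a pattern found at 131 promoters (0.966%), and 0 members had the reverse (260 promoters, 1.92%). The remaining effects of TNF-α on the NDR log2 ratio lay between -0.53 ± 0.79 (SE) at Tap2 and 0.99 ± 0.71 (SE) at B2m. At B2m it was 0.50 without control TNF-α replicate 1, 1.49 without control TNF-α replicate 2, 0.60 without BAF-knockdown TNF-α replicate 2 and 0.35 with a window from -100 to 50 bp. The estimate for Psmb9, on the other side of the same 226 bases, was -0.40 ± 0.52 (SE). It was -1.23 with a window from -100 to 50 bp, where its unadjusted limma p was 0.0384, and from -0.76 without BAF-knockdown TNF-α replicate 2 to -0.06 without BAF-knockdown TNF-α replicate 1. In all promoters the median effect was -0.08. Of the library medians given above, both non-stimulated BAF-knockdown libraries were among the higher and both stimulated ones among the lower, and the part of this shift in the effects was not tested.

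**Figure D4:**
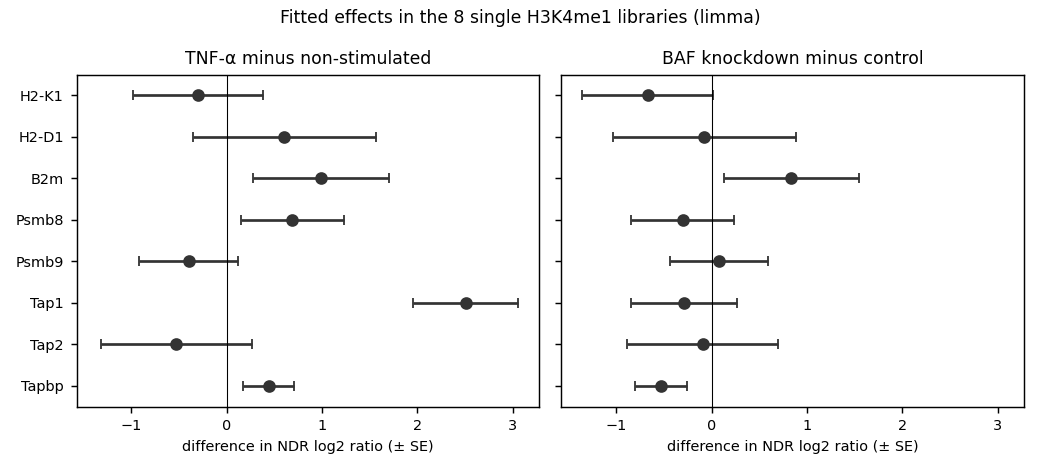
Fitted differences in NDR log2 ratio (horizontal axis, points with bars of 1 SE) for the 8 high-coverage members (vertical axis), TNF-α minus non-stimulated on the left and BAF knockdown minus control on the right, from 8 single H3K4me1 libraries. Tap1 lies apart at 2.51 on the left, and the other estimates lie between -0.67 and 0.99.

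BAF knockdown was examined because remodelling enzymes move or evict promoter nucleosomes. No member passed the test: at an adjusted p below 0.05 in limma, 0 of 8 members and 0 of 13559 promoters (0%) passed for the NDR log2 ratio, with 712 promoters (5.25%) and 0 members at an unadjusted p below 0.05. Estimates for the members lay between -0.67 ± 0.68 (SE) at H2-K1 and 0.84 ± 0.71 (SE) at B2m. The smallest unadjusted p among them belonged to Tapbp, at -0.53 ± 0.27 (SE) with a limma adjusted p of 0.922. At Tap1 the estimate was -0.29 ± 0.55 (SE). In no member did the 4 BAF-knockdown libraries lie apart from the 4 control libraries, whether higher (1.36% of promoters) or lower (1.31%) in NDR log2 ratio, or higher (1.47%) or lower (1.5%) in the patterning level described next.

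The patterning level measures how far a promoter's whole profile follows the mean profile of active promoters in the pooled non-stimulated set of its cell-type: it is the sum over 200 bins of the centred active template times the deviation of occupancy from its mean, and negative values run against the template. With TNF-α, 0 of 8 members and 0 of 13559 promoters (0%) passed in limma, with 770 promoters (5.68%) and again Tap1 alone among the members at an unadjusted p below 0.05. At Tap1 the level was 2.52 and 4.99 in non-stimulated control, 4.14 and 8.52 in non-stimulated BAF-knockdown, -2.38 and -3.00 in stimulated control and -0.864 and -3.96 in stimulated BAF-knockdown cells, a limma difference of -7.59 ± 1.80 (SE) with an adjusted p of 0.867. All 4 stimulated values lay below all 4 non-stimulated ones, as in 142 promoters (1.05%), and 0 members had the reverse (1.59% of promoters). This is the same profile as in the NDR log2 ratio and no separate evidence. In the pooled sets, however, Tap1 had negative patterning levels in all 4 states: -14.2 and -17.5 in non-stimulated and LPS-stimulated DCs, with templates of DCs, and -7.16 and -8.74 in fibroblasts without and with TNF-α. With BAF knockdown, 0 of 8 members and 0 promoters (0%) passed, 792 promoters (5.84%) and 0 members had an unadjusted p below 0.05, and Tap2 had the largest estimate among the members at 4.80 ± 2.24 (SE, limma adjusted p = 0.856). The test of a different TNF-α effect in BAF-knockdown cells gave 0 of 8 members and 0 promoters (0%) at an adjusted p below 0.05, and 766 promoters (5.65%) and 0 members at an unadjusted one. Its largest estimate was 16.99 ± 7.42 (SE, limma adjusted p = 0.86) at H2-D1, whose level was 7.93 and 12.7 in non-stimulated control, -6.51 and 3.57 in stimulated control, 1.90 and 0.116 in non-stimulated BAF-knockdown and 0.0654 and 12.3 in stimulated BAF-knockdown cells.

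Tap2, the other chain of the transporter, had intermediate values. Its NDR log2 ratio was -0.02 and -0.56 in non-stimulated and LPS-stimulated DCs and -0.67 and -0.12 in fibroblasts without and with TNF-α. In the single H3K4me1 libraries it ran from -2.61 to 0.58 with a median of -0.97, the widest replicate SD of the members at 1.34. Occupancy was below the library mean in 10 of 12 H3K4me1 libraries over the IRF element at 21 to 30 bp after the start, and in 7 of 12 over that from -136 to -127 bp, where the 3 pol-II libraries were above it (1.25 to 3.17 times). Again, the share of other promoters below the mean at such positions was not counted. The low stretch at Tap2 lay over and after the start: in the pooled sets the 100 bp window of lowest occupancy began 20 bp before the start in non-stimulated DCs and fibroblasts, with 0.318 and 0.0814 times the mean, and 30 bp before it in stimulated fibroblasts, but it lay 240 bp after the start in LPS-stimulated DCs. GENCODE gives its nearest protein-coding start at -400 bp, from which the NDR log2 ratio was 1.12, 0.90, 0.27 and 0.60 in the 4 pooled sets, higher than from the RefSeq start in each. Most of the moved flank fell outside the bins here too, so these values differ from the former in flank as well as start.

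Tapbp, the gene for tapasin, had the most even NDR log2 ratios of the members. Its NDR log2 ratio was 0.29 and 0.76 in non-stimulated and LPS-stimulated DCs, 0.26 and -0.45 in fibroblasts without and with TNF-α and -0.30 to 0.86 in the 8 single libraries, with a replicate SD of 0.21 against 0.79 to 1.34 for the other 7 members of high coverage. Tapbp also had the highest coverage score of the members, 674. It lay above the median of high-coverage promoters in 15 of 15 libraries, between the 53.3 and 95.5 percentiles. Its patterning level was below the median in 14 of 15 libraries and was not the most even, with a replicate SD of 4.01 against 2.10 at Tap1. Like Psmb8, it was active in DCs (4.71 FPKM) and below the limit in fibroblasts (0.125 FPKM). Its window was occupied in both DC sets and in the pooled non-stimulated fibroblasts. The ratio was negative in the pooled TNF-α-stimulated fibroblasts (-0.45) and in both non-stimulated BAF-knockdown libraries (-0.30 and -0.20), and positive in the others. Erap1, below the coverage limit, had NDR log2 ratios of -0.02 and -1.60 in the DC sets, -1.07 and -1.43 in the fibroblast sets and -2.18 to 0.51 in the single libraries.

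DCs and fibroblasts were set side by side without a test, since each state is 1 pooled set. Before stimulation, 3 of the 8 members had a lower NDR log2 ratio in DCs, and these were the heavy chains and B2m. The median difference of DCs minus fibroblasts was 0.16 over the members and 0.05 over high-coverage promoters, of which 47.8% were lower in DCs. After stimulation with LPS or TNF-α, 5 of the 8 members were lower in DCs, H2-K1, H2-D1, Psmb9, Psmb8 and Tap2, with a median difference of -0.44 (0.08 over high-coverage promoters, 46.5% of which were lower in DCs). The stimuli differ between the cell-types, so that the second contrast is not one of cell-type alone. The difference furthest from 0 was at Psmb9 in both, 2.42 before and -3.54 after stimulation, but with a window from -100 to 50 bp these shrank to 1.38 and -0.92, and H2-K1 was further from 0, at -1.42 and -2.34.

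Pol-II S7P is associated with elongating polymerase and pol-II S5P with initiation and early elongation. They were set beside the 2 H3K4me1 libraries of stimulated control fibroblasts without a test, as the antibody goes together with paired-end reads. At Tap1 the NDR log2 ratio was -3.59 and 0.53 in pol-II S7P replicates 1 and 2 and -0.07 with pol-II S5P, against 0.09 and 0.16 with H3K4me1. In S7P replicate 1 the window from -150 to 0 bp of Tap1 held no signal and a peak of 10.4 times the library mean stood at 135 bp, whereas S7P replicate 2 had peaks at -45 bp and 105 bp. The replicates therefore disagreed over this promoter. Psmb9 had -3.70, -0.87 and 0.03 in the same 3 libraries, H2-D1 -3.71, -0.66 and -2.31, and B2m -0.44, -0.53 and -3.37. The windows behind -3.70, -3.71 and -3.37 held no signal either, so the added 0.1 sets these values. The S5P value lay between both S7P replicates at Tap1 and H2-D1, above them at Psmb9 and below them at B2m. Psmb8 was occupied in all 3, at 0.36, 0.33 and 1.44.

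Of 46 other genes of the pathway, listed by role, 45 had a row and 34 had a row of high coverage, in 39 rows. None passed: in limma, 0 of 39 rows had an adjusted p below 0.05 for TNF-α or BAF knockdown in either measure or for the interaction, and 1 to 3 rows had an unadjusted p below 0.05, where the share over all promoters was 5.25 to 5.84% as given above. In non-stimulated DCs, the lowest NDR log2 ratios among these rows were set by windows with next to no signal, so that their order carries little, and were those of Canx (-4.26), which encodes the chaperone calnexin, and of a start of Nfyc (-4.16), a subunit of the CCAAT-binding factor NF-Y. The highest were those of H2-T3 (1.01), a non-classical class I heavy chain, and Rfx5 (0.96), a regulator of MHC genes. The list had a median of -0.78 in non-stimulated DCs, with 25 of 39 rows below the median of high-coverage promoters, and of -0.38 in non-stimulated fibroblasts, with 17 of 39 below it. All 4 chaperone and loading complex rows of high coverage were below that median in non-stimulated DCs, 2 of 4 after LPS, 3 of 4 in non-stimulated fibroblasts and 2 of 4 after TNF-α. Over the 12 H3K4me1 libraries, the promoters whose NDR log2 ratios followed the mean of the 8 members most closely were those of Slc7a9 (Pearson's r = 0.87), Naxe (0.85) and Nfatc1 (0.85), out of 13551 compared, which is a description of 12 points that share cell line and libraries.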

How the data were processed

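The members and gene lists were chosen with earlier results of these data known. Before deposition, the authors aligned reads with bowtie to mm9 (per the labels Bowtie2, with bedtools also named), removed excess duplicates, extended single-end H3K4me1 reads or kept mononucleosomal paired-end pol-II fragments, and counted them in 10 bp bins relative to the surrounding 1 kb. The deposited occupancies are thus a signal without read counts, and an empty bin was read as 0. The deposited promoter table gives a coverage score and, from public RNA-seq, FPKM before stimulation, used within a cell-type only. The same table's columns of the authors' own induction comparisons were not used, so active promoters (above 0.02 times the mean expression) here include inducible ones. Symbols were matched for 24924 of 25881 rows (96.3%).

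Occupancies were summarised in Python 3.11.15 as NDR log2 ratios and patterning levels, and fitted with limma 3.58.1 in R 4.3.3 over promoters with a score above 100, with p-values adjusted by Benjamini-Hochberg. The step was tested on simulated data. Templates came from active promoters of the pooled non-stimulated set of each cell-type, and pol-II libraries used that of fibroblasts. The labels' replicate numbers were not a term. Named genes were the 9 members and, of the pathway list, the 2 lowest and 2 highest rows of high coverage in non-stimulated DCs, any that passed a test, and the 3 promoters most alike. Sequence came from NCBIM37 (mm9) and starts from GENCODE vM1. CpG islands needed over 50% GC and over 0.6 times the CpG count that base composition gives. Alternatives were another scaling, coverage limits, windows, flanks and added constants, a square root, another template, a replicate term and leaving out libraries, and, added after seeing the data, moved starts.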

Additional observations from a re-analysis of the deposited data

How the results depend on the processing

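In limma, 0 promoters passed for each of the 5 comparisons in most settings. Exceptions were 1 promoter for BAF knockdown and patterning level at a coverage score above 200, 3 promoters for TNF-α and NDR log2 ratio without a filter on coverage, and 0 to 2 for the same when each library was left out in turn (2 without control TNF-α replicate 1). None of the member effects recomputed here passed in any setting. The TNF-α effect on the NDR log2 ratio of Tap1 stayed positive in every alternative run, from 1.24 (0.5 added in place of 0.1) and 1.54 (window from -100 to 50 bp) to 3.01 (without control non-stimulated replicate 1), with limma adjusted p between 0.231 and 0.908, and was 2.43 without both BAF-knockdown libraries of the first replicate, whose names give another amount than the other 6. Its effect on the patterning level of Tap1 stayed negative, from -9.49 to -6.11. The NDR log2 effect of TNF-α turned direction at H2-K1 with the window from -100 to 50 bp (0.52) and, when each library was left out in turn, ranged at H2-K1 from -0.73 to 0.37 and at Tap2 from -1.01 to 0.034. The BAF knockdown effect at Tap1 ranged from -0.54 to 0.21 when each library was left out in turn, and was -0.68 without both BAF-knockdown libraries of the first replicate. The cause was not tested. With the replicate number as a block, limma passed 0 promoters for each comparison, and the Tap1 effect of 2.51 had an adjusted p of 0.612. Deviations of same-numbered libraries hardly correlated over promoters (r between -0.00771 and 0.0197). Such an r does not register a shift shared by all promoters, so it cannot show whether the numbers pair the libraries. The median NDR log2 ratio was -0.36 and -0.37 in control replicate 1, without and with TNF-α, and -0.59 and -0.56 in control replicate 2. In BAF-knockdown cells the medians did not go by number. Depth limits all values of single promoters, since only 63.5 to 78.1% of bins in single H3K4me1 libraries held signal.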
